A study of Mus musculus with 12 samples.

Results

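The 10 genes described here, Fabp1, Fabp2, Apoa1, Apoa4, Apob, Alpi, Vil1, Lct, Sis and Anpep, encode proteins with which the enterocyte takes up lipid and digests nutrients at its brush border. Their histone acetylation was read in mouse intestinal organoids by CUT&RUN for H3K27ac, acetylation of lysine 27 of histone H3, a mark found at active promoters and enhancers. CUT&RUN releases the DNA next to an antibody bound to chromatin, so that only fragments near the mark are sequenced. Members were the intervals called with SEACR, a peak caller made for such data, whose nearest protein-coding gene span lay within 50000 bases and belonged to 1 of the 10 genes. This gave 76 of the 166517 scored intervals (0.0456%), and the rule uses positions only. Each interval carries a peak score in each library, a deposited signal value that is never negative; neither its scale nor the sequencing depth is known.

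The 12 libraries formed 6 groups of 2. Wild-type (WT) organoids received vehicle, AA (arachidonic acid) at 25 µM, or PGE2 (prostaglandin E2) at 50 nM. Organoids from a Ptger4 knockout (KO) received the same 3 treatments. All 6 groups were grown from crypts in Matrigel with EGF, Noggin, R-spondin, CHIR-99021 and Y-27632, additions that favour stem and progenitor cells. The labels give neither strain and age nor how the knockout was made, and the libraries of a group are not said to come from separate cultures or animals, so the p-values measure only the spread between these libraries. The treatment lasted 3 days by one label and 6 days by another, and where the labels have PGE2 the series' own design note has its dimethyl analogue. The headers' EP4KO was read as Ptger4 KO.

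As background, absorptive enterocytes arise from crypt progenitors and fill the villus, where HNF4, CDX and GATA factors are known to drive their genes. Long-chain fatty acids and monoglycerides from the lumen are bound in the cytosol by fatty acid binding proteins, built into triglyceride and exported on chylomicrons, while enzymes anchored in the microvillus membrane finish the digestion of sugars and peptides. AA is the precursor from which cyclooxygenases and prostaglandin E synthases make PGE2, and EP4, the product of Ptger4, is a PGE2 receptor that raises cyclic AMP.

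The bases just upstream of 5 of the gene starts are shown because a SEACR interval covered each of these starts and because these windows differ in the factor motifs they hold. They are the 250 bases before the start in RefSeq on GRCm38.p6, the assembly of mm10, 5′ to 3′ along the gene, and all 10 genes had an entry. Capitals mark every match, on either strand, to the letters searched. For HNF4 these were CAAAGTCCA as the long pattern and AGTCCA as the short one. The CDX family was searched as TTTATG or else as TTTATT. A match to AGATAA stands for the GATA family, and the TATA box was searched as TATAAA alone.
Fabp2, chr3:122894822-122895071, plus strand: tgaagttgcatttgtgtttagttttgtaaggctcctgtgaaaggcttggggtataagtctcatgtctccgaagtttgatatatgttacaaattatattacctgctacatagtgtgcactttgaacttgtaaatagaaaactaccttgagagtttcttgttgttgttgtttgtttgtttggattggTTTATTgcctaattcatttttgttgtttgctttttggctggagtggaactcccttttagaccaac
Fabp1, chr6:71199629-71199878, plus strand: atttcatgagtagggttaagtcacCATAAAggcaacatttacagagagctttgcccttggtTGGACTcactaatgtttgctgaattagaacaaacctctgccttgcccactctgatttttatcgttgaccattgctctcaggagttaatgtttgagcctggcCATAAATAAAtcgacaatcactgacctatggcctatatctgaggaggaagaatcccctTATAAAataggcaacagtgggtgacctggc
Alpi, chr1:87101607-87101856, minus strand: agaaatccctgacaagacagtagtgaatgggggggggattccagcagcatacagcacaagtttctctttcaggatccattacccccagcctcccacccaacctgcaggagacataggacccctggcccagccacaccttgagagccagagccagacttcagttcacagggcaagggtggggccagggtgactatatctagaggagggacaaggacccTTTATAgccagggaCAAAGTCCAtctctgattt
Sis, chr3:72967864-72968113, minus strand: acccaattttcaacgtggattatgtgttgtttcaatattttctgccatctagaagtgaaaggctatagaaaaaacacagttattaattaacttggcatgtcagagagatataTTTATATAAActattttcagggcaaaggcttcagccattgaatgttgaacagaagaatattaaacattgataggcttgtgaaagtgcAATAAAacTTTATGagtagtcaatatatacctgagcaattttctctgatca
Vil1, chr1:74409134-74409383, plus strand: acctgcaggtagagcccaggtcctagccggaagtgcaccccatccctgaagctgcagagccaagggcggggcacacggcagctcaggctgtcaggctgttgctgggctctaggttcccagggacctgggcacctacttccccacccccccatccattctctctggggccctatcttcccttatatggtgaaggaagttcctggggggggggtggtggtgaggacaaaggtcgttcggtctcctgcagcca

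The longer HNF4 pattern, CAAAGTCCA, was present in 0.384% of the 32851 RefSeq mouse promoter windows of the same length. Among the 10 genes it was found in Alpi, 19 to 11 bases before the start, and it contains the shorter AGTCCA, which 11.5% of all windows and the windows of Fabp1, Apoa1 and Alpi held. The CDX letters TTTATG stood in Fabp1, Lct and Sis (10.8% of all windows), and TTTATT in Fabp1, Fabp2 and Sis (18.1%). In Fabp1 a match to each overlapped. AGATAA was found in Lct, at 2 places (9.99% of all windows), and TATAAA in Fabp1, Apob, Alpi and Sis (12.4%). Sis held TATAAA on both strands, and these matches overlapped. The windows of Apoa4, Vil1 and Anpep held none of the letters searched, which speaks only of these 250 bases. A match is a description of the sequence and no evidence of binding.

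The 76 intervals were spread unevenly. Sis had 22 and Apob 20, Anpep 8, Fabp1 and Fabp2 6 each, Vil1 4, Alpi and Lct 3 each, and Apoa1 and Apoa4 2 each. By position, 29 overlapped the span of their gene, 30 lay upstream and 17 downstream. Just inside the distance limit lay intervals 46771 bases from Sis and 48105 from Apob, with mean scores of 0.137 and 0.113, and just outside it lay others 51267 bases from Sis and 52728 from Apob, with 0.104 and 0.142. An interval covered the annotated start of 7 genes. Anpep, Apoa1 and Lct had none across the start, and their nearest intervals lay 247 bases inside Anpep, 1054 bases upstream of Apoa1 (a second one lay inside its span) and 181 bases upstream of Lct.

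**Figure D1:**
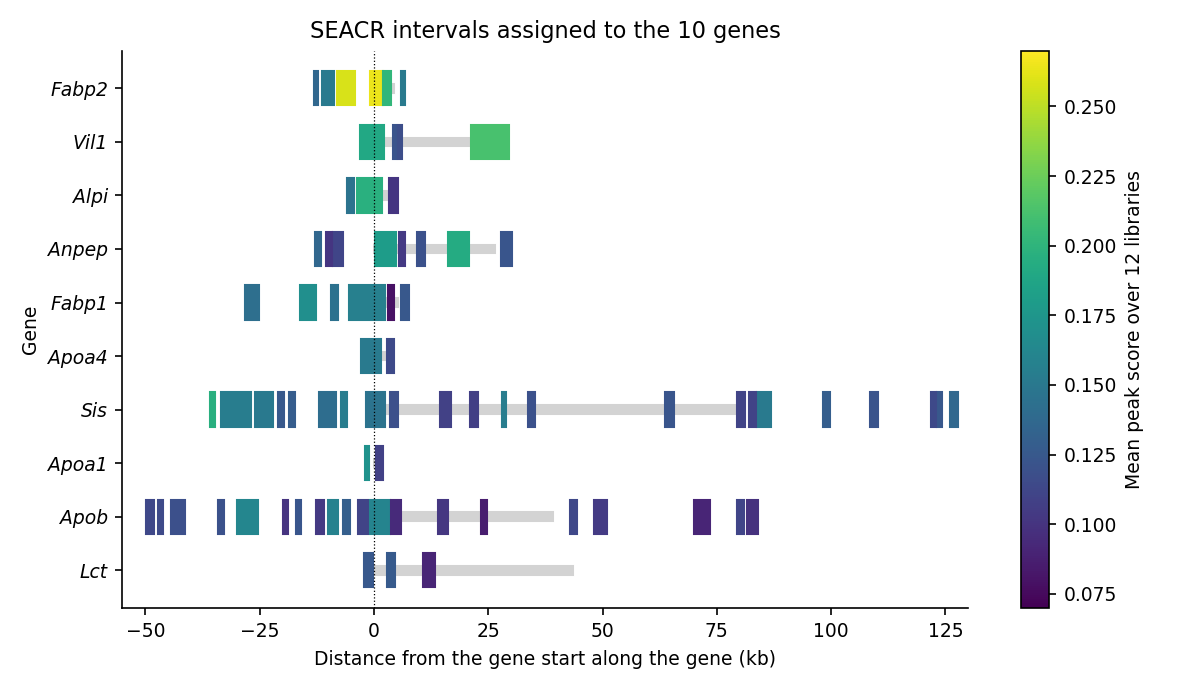
Position of every interval assigned to the 10 genes, as distance from the gene start along the gene in kilobases (x axis), one gene per line (y axis), coloured by the mean peak score over the 12 libraries. The intervals of highest score, which are the brightest, lie at and just before the start of Fabp2. The intervals of Sis and Apob are many and spread over the whole stretch.

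The members' acetylation was ordinary for the series in the middle of its range and reached high values at a few places. The median over the 76 interval means was 0.124, and over all intervals it was 0.118. The 90th percentile of all intervals, a mean score of 0.165, was passed by 11 of the 76 (14.5%), and the 99th percentile of all intervals, 0.227, was passed by 2, both at Fabp2. Wide intervals scored higher across the series, with a median of 0.157 at 4000 bases and over and 0.109 under 2000 bases, so scores of intervals of unlike width are not on an equal footing. The 7 intervals across member gene starts had a median of 0.16, beside 0.162 over the 7657 start intervals of all genes, and a median width of 4530 bases, beside 2980. Among start intervals of at least 4000 bases the median was 0.158 for 6 members and 0.178 for 2274 intervals of all genes. No member interval had a score of 0 in any library.

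The genes are taken by function, beginning with the fatty acid binding proteins. Fabp2 encodes the intestinal fatty acid binding protein, which carries long-chain fatty acids through the enterocyte cytosol. Its strongest interval, chr3:122894300-122896949, ran from 772 bases before the start to 1877 bases after it, over the whole window printed above, and scored 0.264 ± 0.0631 (mean ± SD, n = 12 libraries), at the 99.8th percentile of all intervals. Another Fabp2 interval, chr3:122886954-122890941, lay 4131 bases upstream of the gene and scored 0.258 ± 0.0538. Both thus stood together among the highest scores of the series. Fabp1, the liver-type fatty acid binding protein that enterocytes of the proximal gut also make, had its strongest interval 12692 bases upstream, chr6:71183693-71187187, at 0.169 ± 0.0462. The interval across the Fabp1 start, chr6:71194330-71202219, scored 0.156 ± 0.0301.

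The highest scores of the apolipoprotein genes were close to that of Fabp1. Apob, the structural protein on which chylomicrons are assembled, was strongest 25222 bases upstream, at chr12:7947691-7952407, with 0.162 ± 0.0263, and its start interval chr12:7976867-7981284 had 0.16 ± 0.035. Apoa1, a protein of chylomicrons and of high-density lipoprotein, was strongest at chr9:46226691-46227576, 0.172 ± 0.062, in the upstream flank. Apoa4, an apolipoprotein that the gut secretes on chylomicrons, was strongest across its start, chr9:46237935-46242467, at 0.152 ± 0.028. Apoa1 and Apoa4 lie close together on chromosome 9, and each interval there went to the nearest protein-coding span, of these or of another gene.

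Among the brush border genes, Vil1 and Alpi scored highest. Vil1 encodes villin, which bundles the actin filaments of the microvillus. Its strongest interval, chr1:74430531-74438895, lay at the far end of the gene with 0.212 ± 0.0371 and also overlapped the neighbouring gene Usp37. The interval across its start, chr1:74406423-74411633, had 0.19 ± 0.0337. Alpi, the intestinal alkaline phosphatase, was strongest across its start, chr1:87099857-87105281, at 0.197 ± 0.0272.

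Anpep encodes aminopeptidase N, which trims peptides, and was strongest within the gene at chr7:79827364-79832073, 0.192 ± 0.0329. Sis encodes sucrase-isomaltase. Its strongest interval, chr3:73002561-73003764, lay 34698 bases upstream at 0.196 ± 0.0499, and its start interval chr3:72965544-72969595 had 0.146 ± 0.0365. Lct, the lactase of the suckling animal, had the weakest maximum of the 10 genes, 0.126 ± 0.0339 at chr1:128323686-128325500 within the gene.

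**Figure D2:**
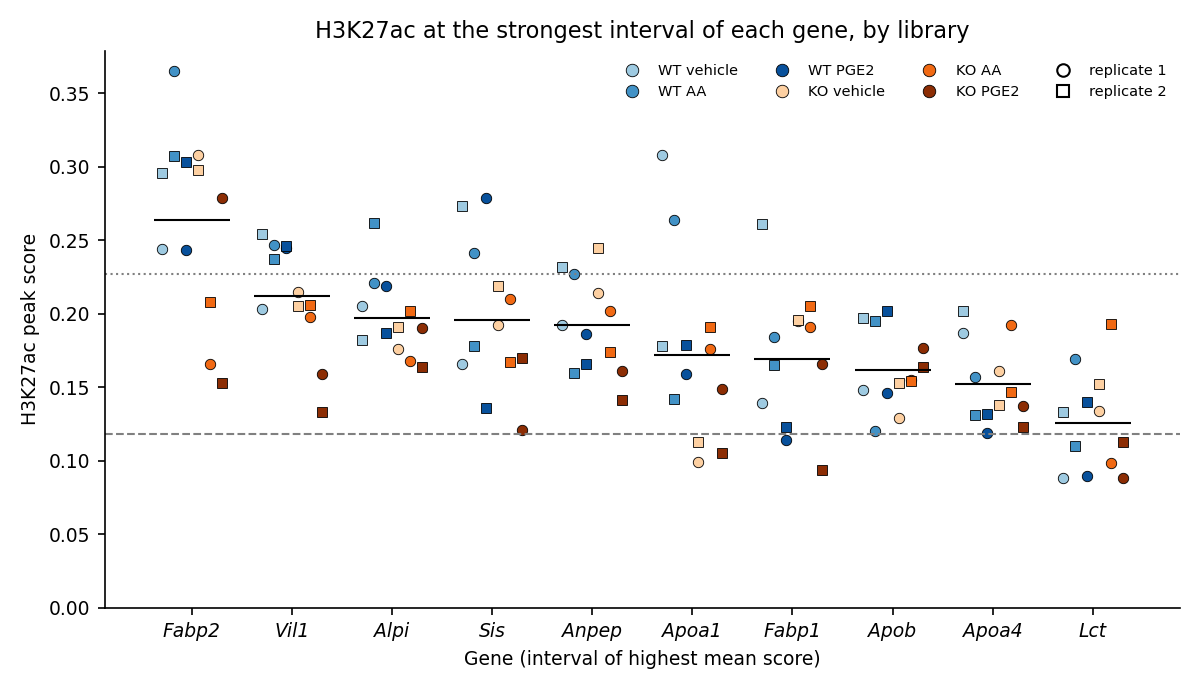
Peak score (y axis) at the interval of highest mean for each gene (x axis), 1 point per library, coloured by group, circles for replicate 1 and squares for replicate 2. Fabp2 lies highest and Lct lowest, and replicate 2 of KO with PGE2 is the lowest point at Fabp2, Vil1, Alpi, Anpep and Fabp1.

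To rank the genes, each gene's intervals were averaged with their widths as weights. Fabp2 came first with 0.213 ± 0.0413 (SD, n = 12), then Vil1 with 0.194 ± 0.0306 and Alpi with 0.167 ± 0.0297. Next stood Anpep (0.149 ± 0.0204), Fabp1 (0.147 ± 0.0248), Apoa4 (0.142 ± 0.024), Sis (0.136 ± 0.0139) and Apoa1 (0.132 ± 0.0324). Apob, at 0.121 ± 0.0125, and Lct, at 0.111 ± 0.0265, closed the order. No gene differed from its neighbour in this order by more than the SD over libraries of either gene. The score is per interval and not per base of gene, and wider intervals weigh more in it.

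In all 12 libraries the median over all intervals lay between 0.0941 and 0.122, and the lowest belonged to KO with PGE2 replicate 2, which stood apart from the other 11 (0.112 to 0.122). That library was also the lowest of the 12 in 8 of the 10 genes, all but Apoa1 and Lct. The list values of the 4 comparisons that use KO PGE2 are therefore given with and without it. Markers of epithelium (Epcam, Cdh1, Krt8, Krt18, Krt19, Cldn7), each taken at its strongest interval, all lay above the median of all genes (0.156), with a median of 0.248. Fibroblast markers with an interval had a median of 0.13 (4 genes), immune markers 0.127 (5) and endothelial markers 0.184 (5). None of these scores was 0 in any library.

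The comparison of the genotypes asks whether acetylation at these genes depends on the PGE2 receptor. Averaged over the 3 treatments, no member interval passed the test of KO against WT, while 71 of all 166471 intervals tested (0.0427%) did (limma on log2(score + 0.0579), Benjamini-Hochberg over all intervals, threshold 0.05). At an unadjusted p under 0.05 there were 10 of the 76 (13.2%), against 9.11% of all intervals, and 9 of the 10 were lower in KO (11.8% of the members, against 6.82% of all). The members' median log2 difference was -0.050 and that of all intervals -0.046. Without KO PGE2 replicate 2 the order of these shares turned round: 6 of 76 members had such a p, against 9.90% of all intervals, and the medians were -0.0054 and -0.020, with 39 members lower and 37 higher. With bulk chromatin, fewer cells of a type and less acetylation per cell cannot be told apart.

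The member with the smallest p was an interval 11665 bases upstream of Anpep, chr7:79859875-79861002. It scored 0.097, 0.189 and 0.251 in the WT libraries (lowest, median, highest of 6) and 0.0689, 0.097 and 0.134 in KO. Most WT libraries were the higher ones, though the ranges overlapped, and the log2 difference was -0.60 ± 0.18 (SE, limma adjusted p = 0.280). At Apob, chr12:7957720-7958853 had 0.0656, 0.108 and 0.238 in WT and 0.0501, 0.0661 and 0.0882 in KO, a log2 difference of -0.54 ± 0.20 (limma, adjusted p = 0.389). The WT highs there were both AA libraries. The interval upstream of Apoa1 had 0.142, 0.179 and 0.308 in WT and 0.0991, 0.131 and 0.191 in KO (-0.41 ± 0.15, limma adjusted p = 0.394). None of the 3 pairs of ranges was separate. Over all 76 members no interval had its 6 KO libraries wholly above or wholly below the 6 WT libraries, which 0.125% and 0.559% of all intervals did.

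The start of Fabp2 is the only member interval that passed under any alternative tried, and it was singled out after its values were seen. It scored 0.243, 0.299 and 0.365 in WT (lowest, median, highest) and 0.153, 0.243 and 0.308 in KO. KO libraries were lower on average but reached into the WT range, with a log2 difference of -0.28 ± 0.11 (limma, adjusted p = 0.430). Without KO PGE2 replicate 1 the difference was -0.40 ± 0.089 (limma, adjusted p = 0.0312), in a fit that called 1482 intervals in all, and without KO PGE2 replicate 2 it was -0.17 (limma, adjusted p = 0.537). Averaged over all intervals of a gene, 0 of 10 genes passed, while 5 of 17492 genes did (0.0286%). Here and below, a gene's log2 difference and p come from the mean of log2 scores, each interval counting alike. The scores printed for a gene in single libraries are weighted by width, so scores and differences need not match in size. An unadjusted p under 0.05 was reached by 2 of the 10, against 14.2% of all genes. They were Fabp2 (-0.26 ± 0.10, limma adjusted p = 0.294) and Apoa1 (-0.23 ± 0.092, limma adjusted p = 0.303).

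The epithelial markers moved beside this result. All 6 had lower scores in KO, with a median log2 difference of -0.29, while 70.6% of all genes, taken in the same way, were lower, with a median of -0.11. Their summed score ran from 1.37 to 1.8 in the WT libraries and from 0.979 to 1.41 in KO. The low of 0.979 was KO PGE2 replicate 2, the library that stood apart. KO PGE2 replicate 1 had 1.33, KO AA 1.24 to 1.27 and KO vehicle 1.36 to 1.41. In vehicle alone the median log2 difference of these markers was -0.067, beside -0.0395 over all genes. The part of the epithelial markers in the members' differences was not tested. The summed fibroblast markers ran from 0.477 to 0.642 in WT and from 0.383 to 0.649 in KO, and the immune markers from 0.601 to 0.838 and from 0.464 to 0.827. The endothelial markers ran from 0.835 to 0.949 in WT and from 0.549 to 0.842 in KO, with 4 of 5 lower. Their median log2 difference was -0.34, below that of the epithelial markers, and -0.23 in vehicle alone. The KO lows of the immune and endothelial markers, 0.464 and 0.549, were again KO PGE2 replicate 2.

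In vehicle alone, no member interval passed for KO against WT (1 of all intervals did, 0.000601%), and 7 of 76 had an unadjusted p under 0.05 (9.21%, against 4.55%). The interval upstream of Apoa1 scored 0.308 and 0.178 in WT vehicle and 0.0991 and 0.113 in KO vehicle. There the log2 difference was -0.84 ± 0.26 (limma, adjusted p = 0.9999). At Sis, chr3:72840186-72841786, 46771 bases downstream, had 0.163 and 0.161 against 0.0561 and 0.0836 (-0.79 ± 0.29). Another Sis interval, chr3:72987477-72988830 in the upstream flank, went the other way, with 0.0836 and 0.097 in WT and 0.187 and 0.234 in KO (0.85 ± 0.32). So 2 intervals assigned to 1 gene had opposite signs. Here and below, the intervals named are those of smallest p, a choice that itself favours groups without overlap. Among genes, Apoa4 had width-weighted scores of 0.176 and 0.183 in WT vehicle and 0.144 and 0.116 in KO vehicle. Its gene mean differed by -0.42 ± 0.15 (limma, adjusted p = 0.941). Lct had 0.0758 and 0.0928 against 0.127 and 0.139 (0.43 ± 0.17, limma adjusted p = 0.997).

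AA was compared with vehicle within WT to ask what the fatty acid does where EP4 is present. No member interval passed, nor did any of all intervals (0.0%), and 2 of 76 had an unadjusted p under 0.05 (2.63%, against 4.56%). The members' median log2 difference was 0.060, beside -0.038 over all intervals, and 33 of 76 were lower, against 54.9% of all. The interval of Apob at chr12:7957720-7958853 scored 0.0656 and 0.11 with vehicle and 0.238 and 0.201 with AA. The AA libraries both lay above both vehicle libraries, with a log2 difference of 0.94 ± 0.34 (limma, adjusted p = 0.9998). At Sis, chr3:72884297-72885901 just past the gene had 0.185 and 0.176 with vehicle and 0.0553 and 0.126 with AA (-0.72 ± 0.32). The interval within Apoa1, chr9:46229174-46230695, had 0.0847 and 0.0879 with vehicle and 0.121 and 0.229 with AA (0.65 ± 0.33). Again none of these passed, and both signs occurred. Of all intervals, 14.3% had both AA libraries above both vehicle libraries and 20.2% had both below.

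Near the gene starts the WT AA values leaned upward. Of the 12 member intervals within 2000 bases of a start, 9 were higher with AA and the median log2 difference was 0.18. Over all 12002 such intervals 51.2% were higher and the median was 0.0074. At the strongest interval of each gene the lean was not seen. There 6 of the 10 members were lower with AA, with a median of -0.071, beside 0.0073 over all genes. Fabp2 scored 0.244 and 0.296 at its start with vehicle and 0.365 and 0.307 with AA. Averaged over the gene, Fabp2 had 0.194 and 0.241 with vehicle and 0.265 and 0.267 with AA. Alpi had 0.16 and 0.14 with vehicle and 0.175 and 0.234 with AA. Of the 10 gene means, 4 were lower with AA. Apoa4 went from 0.176 and 0.183 to 0.144 and 0.116 (-0.36 ± 0.15 over its intervals, limma adjusted p = 0.9998). Anpep went from 0.172 and 0.187 to 0.145 and 0.149 (-0.22 ± 0.12). No gene mean passed in this comparison. An unadjusted p under 0.05 was seen for 2 of the 10 members, Apoa4 among them, and for 4.37% of all 17492 genes.

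PGE2 against vehicle in WT again gave no member interval past the test and none of all intervals (0.0%). At an unadjusted p under 0.05 there were 5 of 76 (6.58%, against 5.80%), and the members' median log2 difference was -0.068, beside -0.032 over all. Within Anpep, chr7:79836983-79838689 scored 0.175 and 0.165 with vehicle and 0.0732 and 0.0696 with PGE2. The PGE2 libraries lay well below the vehicle ones, with a log2 difference of -0.82 ± 0.29 (limma, adjusted p = 0.793). Of all intervals, 20.7% had both PGE2 libraries below both vehicle libraries and 15.8% had both above. An interval downstream of Anpep, chr7:79818053-79820318, had 0.225 and 0.134 with vehicle and 0.0951 and 0.0786 with PGE2 (-0.69 ± 0.29). Over the whole gene Anpep had 0.172 and 0.187 with vehicle and 0.139 and 0.125 with PGE2 (-0.38 ± 0.12, limma adjusted p = 0.639).

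Alpi differed from Anpep in sign. Its upstream interval chr1:87105882-87107482 scored 0.111 and 0.103 with vehicle and 0.185 and 0.259 with PGE2, a log2 difference of 0.75 ± 0.29. Over the gene the width-weighted score was 0.16 and 0.14 with vehicle and 0.196 and 0.191 with PGE2. The unweighted gene mean differed by 0.51 ± 0.18 (limma, adjusted p = 0.700). No gene mean passed in the series (0 of 17492), and 2 of 10 members, Anpep and Alpi, had an unadjusted p under 0.05, against 6.55% of all genes.

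The direct comparison of AA with PGE2 in WT called no member and no other interval (0.0%), with 4 of 76 at an unadjusted p under 0.05 (5.26%, against 5.27%), all 4 higher with AA (2.47% of all intervals). The largest in rank, Apob chr12:7957720-7958853, had 0.238 and 0.201 with AA and 0.106 and 0.0794 with PGE2 (0.88 ± 0.34, limma adjusted p = 0.932). The Sis intervals chr3:72989933-72993941 and chr3:72985028-72986543, both in the upstream flank, had log2 differences of 0.53 ± 0.25 and 0.75 ± 0.36. In the former, AA libraries scored 0.165 and 0.198 and PGE2 libraries 0.0894 and 0.128. The width-weighted score of Apoa1 was 0.173 and 0.197 with AA and 0.115 and 0.114 with PGE2. Its gene mean differed by 0.42 ± 0.16 (limma, adjusted p = 0.841).

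**Figure D3:**
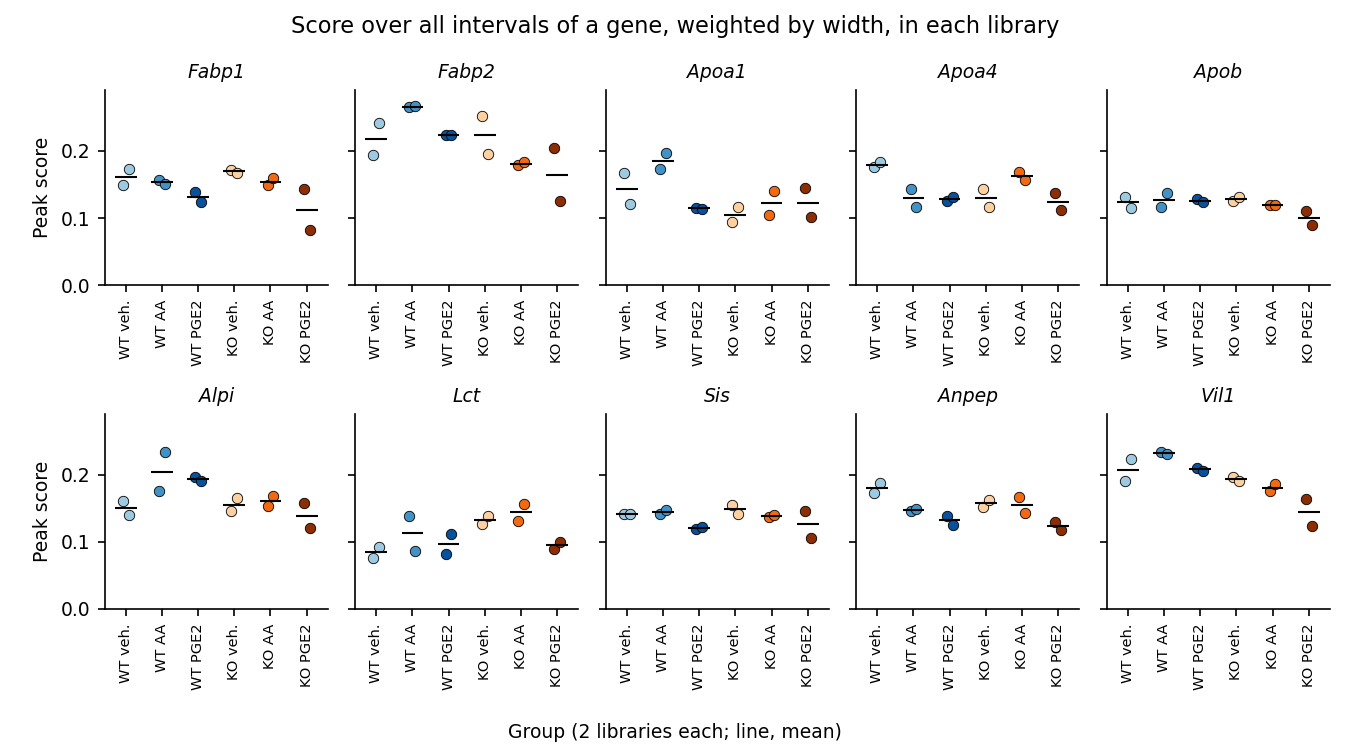
Width-weighted peak score (y axis) of each gene in the 6 groups (x axis), 1 point per library with a line at the mean of the 2. In WT, Fabp2 and Alpi lie higher with AA than with vehicle and Anpep lies lower with PGE2, and replicate 2 of KO with PGE2 is the lowest point of all genes shown except Apoa1 and Lct.

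In the knockout, AA against vehicle gave no member interval past the test and none of all intervals (0.0%), with 4 of 76 at an unadjusted p under 0.05 (5.26%, against 3.74%). The smallest p belonged to the start of Fabp2, which scored 0.308 and 0.298 with vehicle and 0.166 and 0.208 with AA. Both AA libraries lay below both vehicle libraries, with a log2 difference of -0.57 ± 0.19 (limma, adjusted p = 0.9998). Of all intervals, 18.0% had both AA libraries below both vehicle libraries and 16.4% had both above. At Sis, chr3:72844982-72846085 had 0.0482 and 0.0478 with vehicle and 0.105 and 0.174 with AA (0.88 ± 0.36). The interval upstream of Apoa1 had 0.0991 and 0.113 with vehicle and 0.176 and 0.191 with AA (0.56 ± 0.26). The members' median was -0.032, beside -0.0084 over all.

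PGE2 against vehicle in KO gave the lowest list median. No member interval passed, as was so for all intervals (0.0%), while 13 of 76 had an unadjusted p under 0.05 (17.1%, against 8.68%), and 10 of the 13 were lower with PGE2 (13.2%, against 6.85%). The members' median log2 difference was -0.28 with 59 of 76 lower, and that of all intervals was -0.15 with 66.1% lower, a shift of all intervals that centring each library on its median removes. Both PGE2 libraries lay below both vehicle libraries in 32 members (42.1%, against 28.4%). Without KO PGE2 replicate 2 the members' median was -0.13, that of all intervals -0.060, and 49 of 76 were lower. Without replicate 1 they were -0.39, -0.26 and 64. Relative to all intervals the members' median was -0.13, and -0.034 when KO vehicle replicate 1 was left out.

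Single members gave both signs in this comparison. The Sis interval chr3:72840186-72841786 had 0.0561 and 0.0836 with vehicle and 0.307 and 0.143 with PGE2, a log2 difference of 1.09 ± 0.29 (limma, adjusted p = 0.426). At Apob, chr12:7943587-7944969, 32660 bases upstream, had 0.16 and 0.179 with vehicle and 0.0282 and 0.0623 with PGE2 (-1.16 ± 0.32, limma adjusted p = 0.437). A Fabp2 interval 12131 bases upstream, chr3:122881990-122882941, had 0.195 and 0.107 with vehicle and 0.00535 and 0.0686 with PGE2 (-1.19 ± 0.37, limma adjusted p = 0.477). In these 3 the groups did not overlap. Of all intervals, 8.83% had both PGE2 libraries above both vehicle libraries and 28.4% had both below. The gene mean of Fabp1, whose width-weighted scores were 0.172 and 0.167 with vehicle and 0.143 and 0.0819 with PGE2, differed by -0.44 ± 0.15 (limma, adjusted p = 0.436). That of Fabp2, with 0.252 and 0.196 against 0.204 and 0.125, differed by -0.48 ± 0.18 (limma, adjusted p = 0.437). None of the 17492 genes passed, and 2 of 10 members had an unadjusted p under 0.05, against 10.8%.

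Between AA and PGE2 in KO no member passed (8 of all intervals did, 0.00481%), with 5 of 76 at an unadjusted p under 0.05 (6.58%, against 6.97%), all 5 higher with AA (5.44% of all intervals). The Apob interval chr12:7970951-7972500, 5129 bases upstream, had 0.179 and 0.202 with AA and 0.0318 and 0.0708 with PGE2 (1.21 ± 0.32, limma adjusted p = 0.689). The upstream Fabp2 interval named above had 0.0979 and 0.176 with AA (1.09 ± 0.37). Within Anpep, chr7:79843390-79847963 had 0.255 and 0.192 with AA and 0.138 and 0.113 with PGE2 (0.61 ± 0.22). The choice of these 3 by their p favours groups without overlap, and the share of all intervals without overlap was not counted for this comparison. Of all intervals, 33.7% were lower with AA than with PGE2. The members' median was 0.20 with 52 of 76 higher, beside 0.14 over all intervals, and without KO PGE2 replicate 2 it was 0.068 with 41 higher, beside 0.052.

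**Figure D4:**
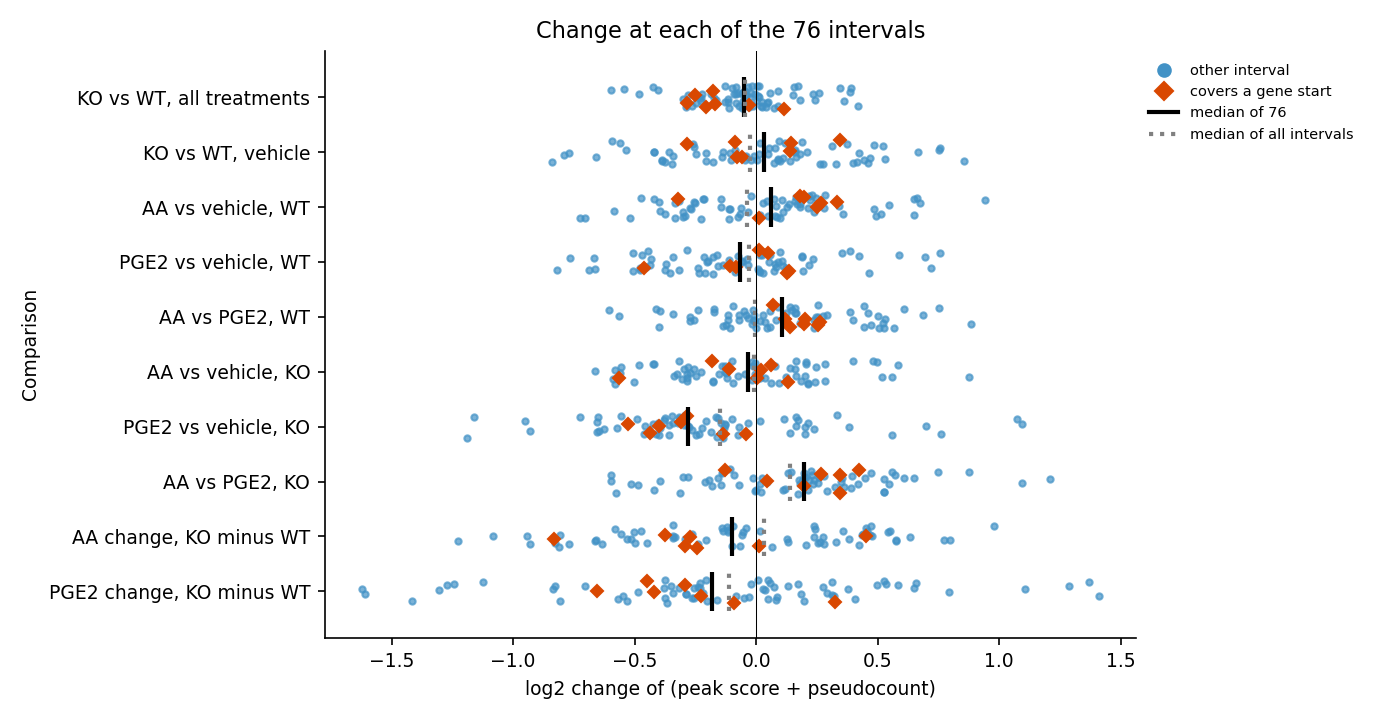
Log2 difference (x axis) at each of the 76 intervals in the 10 comparisons (y axis), diamonds for intervals across a gene start, a solid bar at the members' median and a dotted bar at the median of all intervals. The members' median lies furthest below 0 for PGE2 against vehicle in KO, where the median of all intervals is also below 0, and single intervals spread to both sides in every comparison.

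Whether AA acts otherwise in KO than in WT was tested as the difference of the AA effects. No member interval passed and none of all intervals did (0.0%), with 6 of 76 at an unadjusted p under 0.05 (7.89%, against 4.14%). The smallest p was that of the Fabp2 start, whose AA libraries lay above vehicle in WT and below it in KO, with a difference of effects of -0.83 ± 0.27 (limma, adjusted p = 0.9998). The Apob interval chr12:7957720-7958853 followed with -1.23 ± 0.48, its KO scores being 0.0803 and 0.0882 with vehicle and 0.0637 and 0.0542 with AA. Within Vil1, chr1:74414552-74415580 had 0.0811 and 0.077 with vehicle and 0.0897 and 0.261 with AA in WT, and 0.179 and 0.141 against 0.118 and 0.0919 in KO (-1.08 ± 0.48). One WT AA library carried that value. In 4 members, these 3 and Apob chr12:7927856-7929524, the AA libraries lay wholly above vehicle in WT and wholly below it in KO (5.26%, against 2.65% of all intervals). In 2 members, at Sis and Apoa4, the pattern was the reverse (2.63%, against 3.36%).

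Apoa4 ran against Fabp2 here. Its width-weighted score was 0.176 and 0.183 with vehicle and 0.144 and 0.116 with AA in WT, and 0.144 and 0.116 against 0.169 and 0.156 in KO. For its gene mean the difference of the AA effects was 0.72 ± 0.21 (limma over 17492 genes, adjusted p = 0.9993). Its unadjusted p was the smallest of any member gene in any of the 10 comparisons. No gene of the series passed, and 4.33% had an unadjusted p under 0.05.

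For PGE2 the difference of effects called no member and no other interval (0.0%), with 11 of 76 at an unadjusted p under 0.05 (14.5%, against 6.42%). The Apob interval chr12:7943587-7944969 had 0.118 and 0.0976 with vehicle and 0.209 and 0.136 with PGE2 in WT, and the opposite order in KO, which gave -1.62 ± 0.45 (limma, adjusted p = 0.637). The Sis interval chr3:72840186-72841786 had 0.163 and 0.161 with vehicle and 0.125 and 0.113 with PGE2 in WT (1.41 ± 0.41, limma adjusted p = 0.648). Apob chr12:7970951-7972500 had 0.0564 and 0.157 with vehicle and 0.209 and 0.182 with PGE2 in WT, and 0.145 and 0.0974 with vehicle in KO (-1.42 ± 0.45, limma adjusted p = 0.700). The unweighted gene mean of Alpi differed by -0.73 ± 0.26 (limma, adjusted p = 0.661). Its width-weighted KO scores were 0.145 and 0.165 with vehicle and 0.158 and 0.12 with PGE2. At the strongest Alpi interval alone that difference was -0.091 (limma, adjusted p = 0.953). Members higher with PGE2 in WT and lower in KO, without overlap, numbered 4 (5.26%, against 4.29%), and 1 had the reverse (1.32%, against 1.58%). Without KO PGE2 replicate 2 the members' median difference of PGE2 effects was -0.0044, beside -0.025 over all intervals, where with all libraries it was -0.18, beside -0.11. The comparisons of AA and of PGE2 with vehicle within a genotype share its 2 vehicle libraries.

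Of the other genes of the same functions, each taken at its strongest interval, none passed in any of the 10 comparisons. In KO against WT, 17 of 20 genes of lipid uptake and chylomicron assembly were lower (median log2 difference -0.14), and 12 of 15 brush border hydrolases (-0.082). Lower scores were also found in 14 of 15 genes of brush border structure (-0.23), 13 of 19 transporters (-0.099) and 15 of 16 enterocyte regulators (-0.29). Over all 17492 genes 70.6% were lower and the median was -0.11, and for the 10 members, taken in the same way, it was -0.12 with 8 lower. These values include KO PGE2 replicate 2, and the lists were not fitted without it. In vehicle alone the list medians were -0.11, -0.018, -0.14, 0.012 and -0.12 in the same order, -0.053 for the members and -0.0395 over all genes. At an unadjusted p under 0.05 stood 3 of the 10 members, 4, 2, 7, 7 and 10 genes of these lists in the same order, and 3096 of all genes.

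The regulators came nearest to the threshold. Cdx2, a homeobox factor of the intestine, scored 0.213 and 0.331 with vehicle, 0.311 and 0.32 with AA and 0.318 and 0.315 with PGE2 in WT. In KO it scored 0.227 and 0.203, 0.18 and 0.164, and 0.2 and 0.144. Its WT libraries were higher apart from 1 vehicle library, with a log2 difference of -0.55 ± 0.11 (limma, adjusted p = 0.052). Gata4, a zinc finger factor of the proximal gut, had -0.48 ± 0.10 (limma, adjusted p = 0.0918). In brush border structure Pls1, the actin bundler plastin 1, had -0.46 ± 0.12 (limma, adjusted p = 0.168) and Myo1d, a myosin, -0.39 ± 0.11 (limma, adjusted p = 0.253). KO PGE2 replicate 2 was the lowest library at each of the genes named here.

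The 10 genes did not share 1 pattern over the libraries. After centring each library on its median, the 45 pairs of gene means had a median Pearson r of 0.115 over the 12 libraries, and 27 were positive. The extremes were 0.641 for Fabp2 with Vil1 and -0.548 for Alpi with Anpep. The genes whose pattern was most like the average of the 10 were Ano10 (r = 0.855), Pum2 (0.852) and Ift22 (0.852), the highest of 7775 genes with at least 5 intervals. These are descriptions over 12 libraries that share groups and a score scale. A p that misses the threshold does not show that scores were alike: over the 76 intervals, an SE of 0.29 on the log2 scale, as at Anpep in WT with PGE2, leaves room for large differences in either direction.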

How the data were processed

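H3K27ac CUT&RUN scores of 12 organoid libraries were used. Peaks came from SEACR and MACS2 on mm10, per the submitters' processing notes; versions, settings, normalization and the aligner were not given in the sources used here. Per interval and library, the authors deposited a peak score, a signal value. Depth is unknown, so no counting intervals are given. Members, lists and tests were chosen with earlier results of these data known.

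Intervals were assigned to the nearest of 21900 protein-coding RefSeq spans (GRCm38.p6) within 50000 bases (78.4% assigned), and coordinates are printed as deposited. Scores were taken as log2(score + 0.0579), the pseudocount being the 10th percentile of non-zero values. Intervals above it in at least 2 libraries were kept, 166471 in all, with all 76 members. limma 3.58.1 in R 4.3.3 fitted 6 groups to 12 libraries (eBayes with trend, 6 residual degrees of freedom). The 10 two-sided comparisons were adjusted by Benjamini-Hochberg over all intervals, or over 17492 genes for unweighted means of log2 scores. The fit was tested on simulated data. Named were all members by their strongest and start intervals, the 3 smallest p per comparison where none passed, up to 3 other enterocyte genes per list by p, and the 3 genes most like the members. Alternatives changed the pseudocount, filter, scaling, trend, samples, block and distance to the gene. One regulator that this rule names is not reported here. H3K27me3 and H3K4me3 were not analysed here.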

Additional observations from a re-analysis of the deposited data

How the results depend on the processing

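Of 889 alternative values for 41 single member results, 888 kept their direction and side of the threshold and none reversed, though 23 of the 41 moved by over 1.5 times under at least 1 alternative, 14 of them on leaving out a single library. The exception is the Fabp2 start interval in KO against WT, -0.40 (adjusted p = 0.0312) without KO PGE2 replicate 1. Of 406 counts of members called, 1 was above 0, the same interval. The MACS2 set held no member interval, so that alternative gave no value.

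Counts over all intervals moved more. With quantile scaling, 3 intervals were called for KO against WT in vehicle, 3 for PGE2 in KO and 1 for the difference of PGE2 effects. With median centring, which shifts the median of all intervals by up to 0.149, the first 2 were 0 and 1. Keeping intervals above the median left 31 for genotype, 0 for genotype in vehicle and 0 for AA against PGE2 in KO, and no trend gave 0, 0 and 0. A pseudocount 4 times smaller gave 5 for AA against PGE2 in KO, and one 4 times larger gave 3 for PGE2 in KO. Fits of the compared groups alone called 2 for genotype in vehicle, 4 for AA in KO, 0 for AA against PGE2 in KO and 1 for the difference of AA effects. Without both KO PGE2 libraries the counts were 44 for genotype, 2 in vehicle, 1 for AA and 1 for PGE2 in WT, and 2 for the difference of AA effects.

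The members' median relative to all intervals also moved. With the larger pseudocount, which kept 9 members, it was -0.044 for AA in WT, 0.044 for AA against PGE2 in WT and 0.0033 for the difference of AA effects. Within 2 kb of the span it was -0.016 for PGE2 in KO. Within 2 kb of the start it was -0.13 for genotype, 0.22 for AA in WT, 0.18 for AA against PGE2 in WT, -0.31 for the difference of AA effects and -0.15 for that of PGE2. Start intervals of all genes moved too: against these alone, genotype gave -0.17 for members beside -0.13, AA in WT 0.18 beside 0.0074, AA against PGE2 in WT 0.18 beside 0.031, and the differences of effects -0.28 beside -0.075 for AA and -0.26 beside -0.18 for PGE2.

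Leaving out 1 library each gave 12 (without KO AA replicate 1) to 1482 intervals for genotype, with 0 to 1 members. It gave 0 to 5 in vehicle, 0 to 1 for AA and 0 to 1 for PGE2 in WT, 0 to 175 for PGE2 in KO, 0 to 60 for AA against PGE2 in KO, 0 to 2 and 0 to 30 for the differences of AA and PGE2 effects. Each of the 12 left-out libraries moved the genotype count by over 1.5 times. The highest counts all came without KO PGE2 replicate 1, shared for the difference of AA effects with replicate 2. The relative medians ran from 0.028 to 0.14 for AA in WT, -0.12 to 0.0078 for PGE2 in WT and -0.14 to -0.034 for PGE2 in KO. They ran from -0.011 to 0.076 for AA against PGE2 in KO and -0.079 to 0.032 for the difference of PGE2 effects. The lowest for AA in WT, the lowest for PGE2 in WT and the highest for the difference of PGE2 effects came without WT vehicle replicate 2, and the lowest for AA against PGE2 in KO without KO AA replicate 1. The cause of these moves was not tested beyond what each setting's construction shows.

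Over all intervals no sign was found that libraries of the same replicate number deviate together, which does not show that they were prepared apart. Over 15 pairs of groups the correlation of same-numbered deviations averaged -0.000974 (-0.0243 to 0.00966). With the replicate number as a block, 4 intervals were called for PGE2 in KO in place of 0, no member interval was called, and every other count of calls stayed within 1.5 times.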
